A study of Mus musculus with 6 samples.

Results

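Endothelial tip cells lead the sprouts of growing blood vessels, and 8 genes known as markers of these cells were followed here across bulk RNA-Seq of the E12.5 mouse lateral cortex: Esm1, Angpt2, Kcne3, Adgrl4, Apln, Cxcr4, Dll4 and Pdgfb. All 8 were among the 17068 genes of the deposited count table. The list was chosen from known tip-cell genes with the fold changes of this same comparison in view, and Esm1, Angpt2 and Kcne3 were already known to be among its largest changes. The differences between the groups are therefore a description for these 8 genes. Where the text says which of them crossed the threshold of the fit to the whole table, the choice of the genes had a part in that, and nothing is read from it. All 6 libraries are labelled as female, strain c57/bl6, at embryonic day 12.5. The 4 controls carried no Cre, controls 1, 2 and 4 with the genotype Foxp1 fl/+ and control 3 with Foxp1 fl/fl. The 2 mutant libraries were labelled Foxp1 fl/fl;Emx1Cre and are called Foxp1cKO. All 6 samples thus carried a floxed Foxp1 allele, while Cre was present only in the mutants, so the effects of Cre and of the deletion cannot be told apart. Emx1 marks the progenitors of the dorsal telencephalon and their progeny, whereas endothelial cells belong to another lineage. Litters were not used, since the labels do not give them.

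A sprout forms when endothelial cells meet VEGF-A from hypoxic tissue. The cell with the strongest VEGF receptor signalling takes the tip position, extends filopodia and displays the Notch ligand Dll4, which lowers the response of its neighbours, the stalk cells. Tip cells also secrete factors that loosen vessels (Angpt2), call in pericytes (Pdgfb) and act on the endothelium behind them (Apln). In the embryonic cortex, vessels enter from the surface and from the ventral side and form a plexus near the ventricle. Most genes in this group are also used outside tip cells, and Cxcr4 is well known in Cajal-Retzius cells and migrating interneurons.

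The libraries held 50076008 to 78346979 counted reads. Values are given in CPM (a gene's share of the counted reads, scaled by TMM), and 3 counts, the smallest amount taken as detectable, correspond to 0.0381 to 0.0596 CPM, a floor that covers counting error only. The labelled tissue was matched by its markers, with Emx1 at 68.8 to 135 CPM and Pax6 at 171 to 245 CPM in the 6 libraries. Endothelial genes were present in every library, for example Pecam1 (21.4 to 45.7 CPM) and Esam (8.94 to 13.5 CPM). Foxp1 itself had 59.7 to 79.1 CPM in the controls, against 83.2 and 76.8 CPM in the libraries labelled Foxp1cKO. The targeted gene was thus not lower in the mutants. Reads from the floxed exons are not separated from the rest of the gene in these counts, so every direction below rests on the labels.

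The 8 genes lie on 8 chromosomes, and promoter windows from RefSeq (GRCm38.p6) matched 6 of them by symbol, all but Angpt2 and Pdgfb. The windows of the 250 bases before the annotated start are shown for Esm1, Kcne3 and Adgrl4, which had fold changes from 2.08 to 9.16, and for Cxcr4, which had the smallest of the 8. Capitals mark the letters ACGTG or GCGTG on either strand, the core of the hypoxia response element. The windows are chr13:113209409-113209658 (plus strand) for Esm1, chr7:100176420-100176669 (plus strand) for the first of 2 starts of Kcne3, chr3:151437632-151437881 (plus strand) for Adgrl4 and chr1:128592300-128592549 (minus strand) for Cxcr4, each read 5′ to 3′ on the strand of its gene.
Esm1: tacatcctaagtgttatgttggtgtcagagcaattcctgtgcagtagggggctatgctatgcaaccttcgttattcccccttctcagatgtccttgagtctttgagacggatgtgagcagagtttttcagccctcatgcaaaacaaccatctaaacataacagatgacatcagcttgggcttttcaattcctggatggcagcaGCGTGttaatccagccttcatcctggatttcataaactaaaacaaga
Kcne3: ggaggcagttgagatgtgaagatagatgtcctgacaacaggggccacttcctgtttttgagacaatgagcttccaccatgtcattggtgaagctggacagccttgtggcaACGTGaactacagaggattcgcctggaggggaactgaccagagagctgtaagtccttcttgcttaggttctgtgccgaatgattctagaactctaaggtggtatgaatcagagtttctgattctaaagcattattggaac
Adgrl4: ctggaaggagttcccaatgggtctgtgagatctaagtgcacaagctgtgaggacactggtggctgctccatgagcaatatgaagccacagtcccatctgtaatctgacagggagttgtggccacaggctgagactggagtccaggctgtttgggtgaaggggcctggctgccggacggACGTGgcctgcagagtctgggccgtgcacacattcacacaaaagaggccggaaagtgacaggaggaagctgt
Cxcr4: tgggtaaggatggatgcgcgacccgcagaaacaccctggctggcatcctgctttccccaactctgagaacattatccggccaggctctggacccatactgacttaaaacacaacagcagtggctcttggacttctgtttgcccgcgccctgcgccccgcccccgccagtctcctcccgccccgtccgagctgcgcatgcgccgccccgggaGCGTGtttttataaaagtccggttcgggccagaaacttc

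Of 7 windows in all, 5 held ACGTG or GCGTG, against 38.6% of the 32851 promoter windows of that length in the table. Relative to the annotated start, the hit lay at -47 in Esm1, -140 in Kcne3, -72 in Adgrl4 and -39 in Cxcr4. Dll4 held GCGTG on the opposite strand at -195. Both RefSeq starts of Kcne3 lie downstream of the GENCODE M21 start of the gene given with its values below, so the ACGTG at -140 falls within the GENCODE gene. The window of Apln and the other window of Kcne3 held neither. Among the 6 genes with a window, the core was therefore present in genes with large and with small differences. The forkhead letters GTAAACA were in 0 of the 7 windows and in 3.17% of all windows, and the RBPJ letters TGGGAA were in 2 of the 7, the second Kcne3 window and that of Adgrl4, against 21.6% of all. None of these motifs overlapped another in the members' windows. These matches describe letters and not binding. GC content ran from 44.0% in Esm1 to 65.6% in Dll4, around a median of 52.4% over all windows.

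In the libraries labelled Foxp1cKO, all 8 genes had a log2 fold change above 0, as 8407 of all 17068 genes did, but over a wide range. Esm1, Angpt2 and Kcne3 were 9.16-, 6.76- and 6.74-fold higher, Adgrl4 and Apln 2.08- and 1.95-fold, Dll4 1.48-fold, Pdgfb 1.23-fold and Cxcr4 1.07-fold. Their median log2 fold change was 1.01, beside a median of -0.0044 over all 17068 genes. Both mutant libraries were above all 4 controls for 6 of the 8 genes, and this was so for 11.5% of all genes. The exceptions were Cxcr4 and Pdgfb. At a Benjamini-Hochberg adjusted p of 0.05 over the whole table in edgeR, Esm1, Angpt2, Kcne3 and Adgrl4 passed, 4 of the 8, where 0.152% of all genes passed in this direction. Adgrl4 lay just inside the threshold and Apln just outside it. The number passing depended on single libraries: it was 1 (Kcne3) without control 1, 0 without control 2, 3 without control 3, 4 without control 4, and 0 without either library labelled Foxp1cKO. DESeq2 on all libraries called 6 of the 8 as higher, with Apln and Dll4 added. It called far more genes than edgeR did, 310 of all 17068 in this direction.

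**Figure D1:**
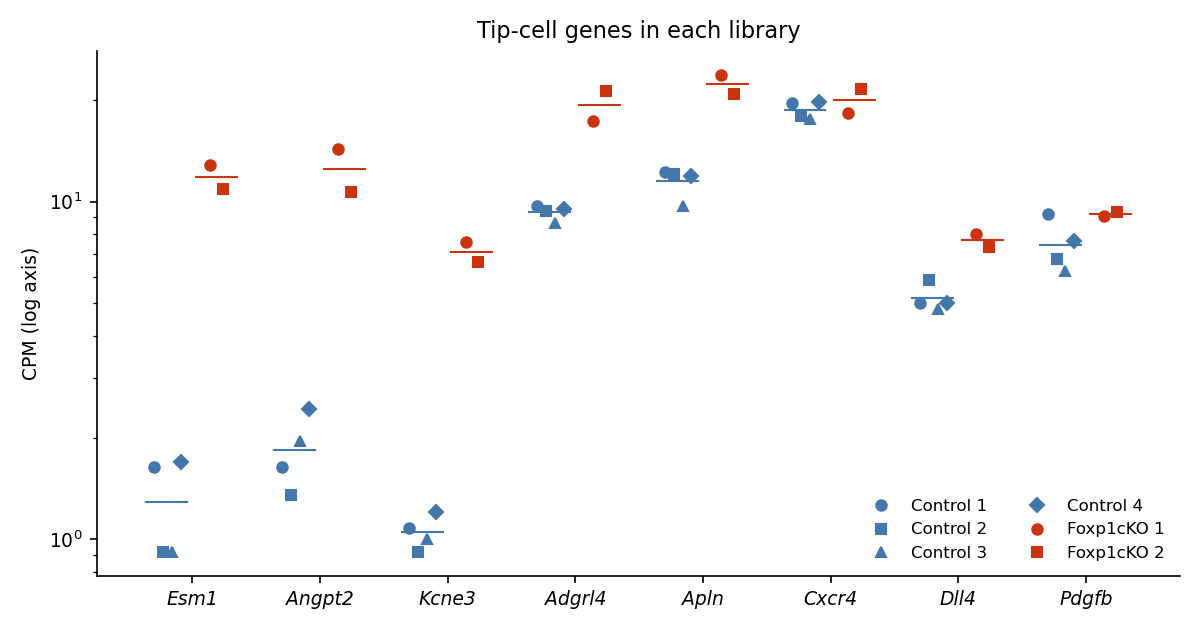
CPM on a log axis of each tip-cell gene in the 4 controls (blue) and the 2 libraries labelled Foxp1cKO (red), with lines at the group means. Esm1, Angpt2 and Kcne3 lie between 0.917 and 2.44 CPM in the controls and between 6.62 and 14.3 CPM in the mutants, whereas the points of Cxcr4 and Pdgfb overlap.

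Esm1 encodes endocan, a proteoglycan secreted by endothelial cells and a classical tip-cell marker (ENSMUSG00000042379.8, chromosome 13, 113209659 to 113218098). Controls 1 to 4 had 1.63, 0.917, 0.919 and 1.69 CPM, from 57 to 133 counts. In Foxp1cKO 1 and 2 it had 12.8 and 10.9 CPM, from 644 and 825 counts. The controls fell into a lower pair (2 and 3) and a higher pair (1 and 4), and even the higher pair was far below both mutants. The log2 fold change was 3.20 (standard error 0.300). The mean over the mutants lay 2.78 to 3.64 above single controls on the log2 scale. Relative to the other members, Esm1 had the largest spread among the controls, with a coefficient of variation of 33.3%.

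Kcne3, an accessory subunit of voltage-gated potassium channels (ENSMUSG00000035165.14, chromosome 7, 100176502 to 100184869), was the most even of the 3 genes with the largest fold changes. It had 1.08, 0.917, 1.00 and 1.21 CPM in controls 1 to 4 and 7.59 and 6.62 CPM in Foxp1cKO 1 and 2. No library of either group came near the other group, and the log2 fold change was 2.75 (standard error 0.189). The coefficient of variation of the controls was 11.7%, no more than the 13.2% that counting error alone gives at the 57 counts of its lowest library. Kcnq1, a pore-forming channel with which KCNE3 assembles, had 0.885 to 1.16 CPM in the controls and 2.07 and 1.83 CPM in the mutants. Its log2 fold change of 0.91 (standard error 0.226) did not pass the threshold (edgeR adjusted p = 0.242), although both mutants were above all controls.

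Angpt2 encodes angiopoietin-2, a ligand of the receptor TIE2 that opposes angiopoietin-1 and loosens vessels during sprouting (ENSMUSG00000031465.6, chromosome 8, 18690263 to 18741562). It had 1.63, 1.35, 1.95 and 2.44 CPM in controls 1 to 4. In Foxp1cKO 1 and 2 the values were 14.3 and 10.7 CPM, so the lower mutant was still several times above the highest control. The log2 fold change was 2.76 (standard error 0.255). Angpt2 lies within the span of Mcph1 on the other strand, with 0 shared exonic bases. Mcph1 had 30.8 to 42.1 CPM in the controls and 42.9 and 38.9 CPM in the mutants, a log2 fold change of 0.22 (standard error 0.132). Its difference was thus much smaller than that of Angpt2.

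The other ligand and the receptors of the angiopoietin system did not pass the threshold. Angpt1, the activating ligand, had 11.6 to 19.4 CPM in the controls and 15.4 and 13.7 CPM in the mutants, with a log2 fold change of -0.023 (standard error 0.207) whose sign depended on the processing. The receptor gene Tek, which encodes TIE2, had 9.96 to 17.9 CPM in the controls and 7.35 and 13.1 CPM in the mutants. For Tek, Foxp1cKO 1 was below all controls and Foxp1cKO 2 within their range, and its log2 fold change of -0.35 (standard error 0.317) turned to 0.0054 without Foxp1cKO 1. Tie1, the companion receptor, was at -0.29 (standard error 0.232). In edgeR, the adjusted p was 0.976 for Angpt1, 0.670 for Tek and 0.621 for Tie1.

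Adgrl4 encodes an adhesion G protein-coupled receptor of endothelial cells, also known as ELTD1 (ENSMUSG00000039167.11, chromosome 3, 151437887 to 151545086). It was the steadiest member in the controls, at 9.70, 9.38, 8.67 and 9.50 CPM, a coefficient of variation of 4.82% where counting error alone gives 4.14% at the lowest count. In Foxp1cKO 1 and 2 it had 17.3 and 21.3 CPM. The groups were well apart, and the log2 fold change was 1.05 (standard error 0.127).

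Apln encodes apelin, a peptide that tip cells secrete and that stalk cells and veins receive through the receptor APLNR (ENSMUSG00000037010.7, chromosome X, 48025146 to 48034853). It had 12.3, 12.1, 9.69 and 11.9 CPM in controls 1 to 4, of which control 3 stood below the other 3. In Foxp1cKO 1 and 2 it had 23.8 and 20.9 CPM, and the log2 fold change was 0.96 (standard error 0.134). The receptor showed the opposite direction. Aplnr had 27.2, 13.7, 14.3 and 15.9 CPM in the controls and 5.72 and 7.46 CPM in the mutants, and both mutants were below all controls, as was the case for 13.1% of all genes. For Aplnr the log2 fold change was -1.43 (standard error 0.322), and it did not pass the threshold (edgeR adjusted p = 0.242). Control 1 stood apart for Aplnr, and without it the log2 fold change was -1.17. With DESeq2 the adjusted p was 0.000678.

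Dll4, the Notch ligand of tip cells and of arteries (ENSMUSG00000027314.6, chromosome 2, 119325784 to 119335962), differed less. It had 5.01, 5.87, 4.80 and 5.02 CPM in controls 1 to 4 and 8.01 and 7.36 CPM in Foxp1cKO 1 and 2. Both mutants were above control 2, the highest control, and the log2 fold change was 0.57 (standard error 0.155). Of the Notch receptors of endothelial cells, Notch1 had 288 to 318 CPM in the controls and 441 and 402 CPM in the mutants. Its log2 fold change of 0.46 (standard error 0.0784) did not pass (edgeR adjusted p = 0.152), and Notch1 is also used by radial glia. Notch4, which is largely endothelial, had 9.91 to 12.1 CPM in the controls, a range that held both mutants, with a log2 fold change of 0.030 (standard error 0.135).

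Pdgfb, the ligand by which sprouts recruit pericytes (ENSMUSG00000000489.7, chromosome 15, 79995874 to 80014977), showed 9.19, 6.76, 6.22 and 7.67 CPM across the controls. Foxp1cKO 1 and 2 had 9.04 and 9.32 CPM, and control 1 lay between them, so the groups overlapped. The log2 fold change was 0.30 (standard error 0.185). Its receptor gene Pdgfrb, expressed by pericytes, had 16.9 to 26.5 CPM in the controls and 25.9 and 27.8 CPM in the mutants, with a log2 fold change of 0.42 (standard error 0.189, edgeR adjusted p = 0.408). Pdgfra, the receptor of fibroblasts and oligodendrocyte precursors, was at -0.26 (standard error 0.427).

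Cxcr4, the receptor for the chemokine CXCL12 (ENSMUSG00000045382.6, chromosome 1, 128588199 to 128592293), had the smallest difference of the 8. It had 19.6, 17.9, 17.6 and 19.7 CPM in controls 1 to 4 and 18.3 and 21.6 CPM in Foxp1cKO 1 and 2. The mutants stood on either side of the control mean of 18.7 ± 1.12 CPM (SD, n = 4), and the log2 fold change of 0.094 (standard error 0.114) turned to -0.048 without Foxp1cKO 2. The ligand gene Cxcl12 had 30.5 to 58.0 CPM in the controls and 22.4 and 42.5 CPM in the mutants. The scavenger receptor gene Ackr3 had 29.3 to 47.8 CPM and 37.8 and 39.7 CPM. Neither gene passed the threshold, with log2 fold changes of -0.35 (standard error 0.330) and 0.16 (standard error 0.206). Markers of other cells that use Cxcr4 are given beside it, and their part in its values was not tested. The summed CPM of 7 Cajal-Retzius markers was 411 to 507 in the controls and 491 and 599 in the mutants. All 7 were higher, as 8407 of all 17068 genes were, at a median log2 fold change of 0.30, and 0 passed the edgeR threshold. The sum of 9 interneuron markers was 275 to 904 in the controls and 425 to 571 in the mutants, with 6 of the 9 higher.

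The receptors and the ligand of the VEGF system, which set the tip state, differed among themselves. Vegfa rose from 64.9 to 71.7 CPM in the controls to 231 and 267 CPM, with a log2 fold change of 1.84 (standard error 0.0840, edgeR adjusted p = 0.00165). It passed with each library left out in turn, at adjusted p-values up to 0.0291. With the replicate number as a block its adjusted p was 0.0808. Flt1, which encodes VEGFR1, a receptor that binds VEGF-A and limits its action, rose from 12.5 to 18.1 CPM in the controls to 44.6 and 54.2 CPM. For Flt1 the log2 fold change was 1.64 (standard error 0.159, edgeR adjusted p = 0.0179). Its adjusted p was 0.0706 without control 1, 0.101 without control 2, 0.0820 without Foxp1cKO 1, 0.192 without Foxp1cKO 2 and 0.149 with the replicate block. Kdr, which encodes VEGFR2, the main signalling receptor of tip cells, had 45.2 to 69.5 CPM in the controls and 57.3 and 62.9 CPM in the mutants. Its log2 fold change was 0.18 (standard error 0.177), and that of the co-receptor gene Nrp1 was -0.23 (standard error 0.142). Neither passed.

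**Figure D2:**
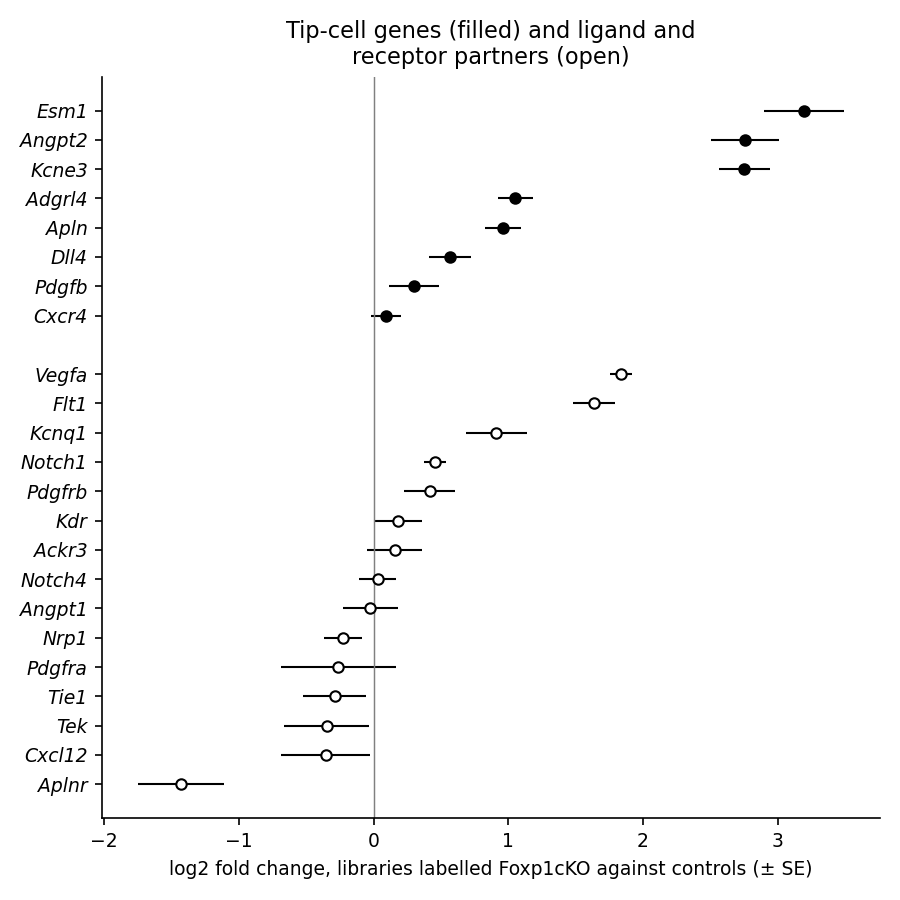
Log2 fold changes of the libraries labelled Foxp1cKO against the controls, with standard errors from the edgeR fit, for the 8 tip-cell genes (filled) and 15 ligand and receptor partners (open). Esm1, Angpt2 and Kcne3 lie above 2.7, Vegfa and Flt1 above 1.6, and Aplnr at -1.43.

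Among the 15 partner genes in the table, of 16 listed, 2 passed the threshold, Vegfa and Flt1, both higher, and 0 passed as lower. Over all 17068 genes, 26 passed as higher and 0 as lower. DESeq2, which called 310 of all genes as higher and 197 as lower, added Notch1 and Kcnq1 as higher and Aplnr as lower. The median log2 fold change of the partners was 0.030. A further 19 genes that tip cells are reported to express were all in the table. Of these, 2 rose past the threshold and 0 fell, where 26 and 0 of all 17068 genes did. Adm, which encodes the vasodilator peptide adrenomedullin, rose from 0.974 to 1.36 CPM in the controls to 5.38 and 6.41 CPM (log2 fold change 2.43, standard error 0.210, edgeR adjusted p = 0.0130). Igfbp3, a secreted binding protein of insulin-like growth factors, rose from 9.45 to 14.2 CPM to 43.7 and 40.4 CPM (log2 fold change 1.84, standard error 0.159, edgeR adjusted p = 0.0130). Both lost the threshold without control 2 (adjusted p = 0.0773 for each), without Foxp1cKO 1 (0.0692 for Adm and 0.0914 for Igfbp3), without Foxp1cKO 2 (0.162 and 0.149), and with the replicate block (0.200 and 0.0992). The median over the 19 genes was 0.16, with 13 higher and 6 lower. Plaur, the urokinase receptor gene, and Unc5b, a netrin receptor gene of tip cells, had both mutants above all controls, at log2 fold changes of 1.34 and 0.38, but did not pass in edgeR, whereas DESeq2 called both. Flt4 (-0.0039), Nid2 (0.29) and Mcam (0.16) did not separate the groups. Pgf, which encodes placental growth factor, was the lowest of the list, at -0.23.

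Of 15 genes of stalk cells and of endothelial Notch signalling, all in the table, 1 rose past the threshold, Flt1, and 0 fell. Over all 17068 genes, 26 rose past it and 0 fell. The median log2 fold change of the 15 genes was 0.30, with 10 higher and 5 lower. For 5 of the 15 both mutants were above all controls, beside 11.5% of all genes. For 1 both were below, beside 13.1%. Hey1 and Hey2, transcriptional targets of Notch, had log2 fold changes of -0.26 (standard error 0.233) and -0.35 (standard error 0.540). Heyl, listed with them, was at 0.066 (standard error 0.180), and Nrarp, a feedback target, at -0.058 (standard error 0.140). Jag1, the ligand that opposes Dll4 in stalk cells, was at 0.35. None of these passed. Vwf, the gene of von Willebrand factor, had 9.70 to 19.9 CPM in the controls and 37.6 and 44.1 CPM in the mutants (log2 fold change 1.53, standard error 0.296, edgeR adjusted p = 0.198). Smad6 and Smad7, inhibitors of BMP and TGF-beta signalling, had both mutants above all controls, at 0.54 and 0.53, without passing. DESeq2 called 4 of the 15 as higher, Flt1, Notch1, Smad7 and Vwf, and 1 as lower, Aplnr. Of all 17068 genes, it called 310 as higher and 197 as lower.

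The level of endothelial RNA as a whole did not separate the groups. Of 24 pan-endothelial genes, all in the table, 0 passed the edgeR threshold in either direction, and 3 reached p under 0.05 before adjustment, as 2224 of all 17068 genes did. DESeq2 called 1 of them, Pecam1, as higher, beside 310 of all 17068 genes, and limma on the VST values called 0. The median log2 fold change of the list was 0.12, with 17 higher and 7 lower. Its summed CPM was 403, 279, 265 and 323 in controls 1 to 4 and 319 and 395 in Foxp1cKO 1 and 2, so the mutants lay within the range of the controls. Pecam1 had the largest fold change of the list, 0.65 (standard error 0.169, edgeR adjusted p = 0.251), with both mutants above all controls. Mfsd2a, a lipid transporter of the blood-brain barrier, was lowest, at -0.37, with both mutants below all controls. The log2 fold change was 0.0035 for Cdh5, 0.024 for Esam and -0.053 for Cldn5, but 0.64 for Icam2, 0.63 for Clec14a and 0.60 for Mmrn2. For 3 of the 24 genes both mutants were above all controls, beside 11.5% of all genes. For 1 both were below, beside 13.1%. In bulk tissue, a larger number of tip cells and more of the tip-cell RNAs in each cell cannot be told apart. Bulk counts also do not show which cells held these RNAs, and this was not tested.

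Each member was also set against the pan-endothelial genes of its own library. The value was its log2 CPM minus the mean log2 CPM of the 24 genes. A larger number of tip cells and more RNA in each of them would both raise it, so it does not separate them either. RNA of the member from other cells would raise it too. On this scale Esm1 was at -2.84, -3.07, -3.00 and -2.47 in controls 1 to 4 and at 0.54 and -0.11 in Foxp1cKO 1 and 2. Esm1 was thus far below the endothelial mean in the controls and near it in the mutants. The difference between the groups was 3.06 for Esm1, 2.60 for Angpt2 and 2.56 for Kcne3. It was 0.88 for Adgrl4 and 0.80 for Apln. For these 5 genes both mutants were above all controls on this scale too. Dll4, at 0.41, no longer separated the groups, since Foxp1cKO 2 (-0.67) was below controls 2 and 3 (-0.43 and -0.65). Pdgfb (0.15) and Cxcr4 (-0.072) did not separate the groups either. Foxp1cKO 1 had the higher relative level for each of the 8 genes, whereas Foxp1cKO 2 had the higher summed endothelial CPM.

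**Figure D3:**
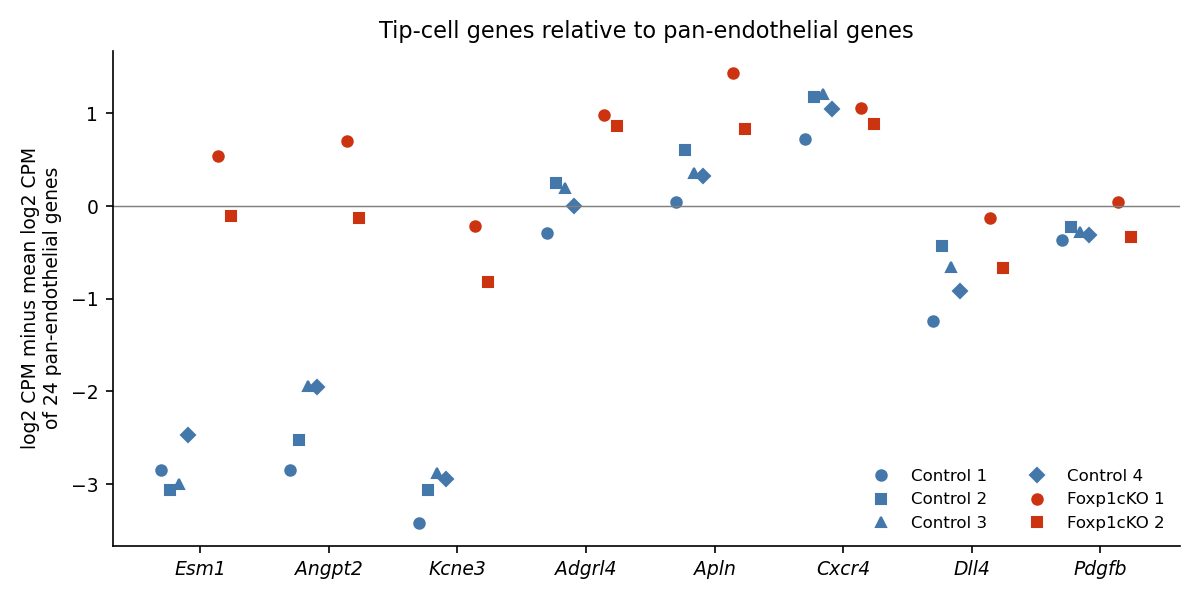
Log2 CPM of each tip-cell gene minus the mean log2 CPM of 24 pan-endothelial genes in the same library, for the 4 controls (blue) and the 2 libraries labelled Foxp1cKO (red). Esm1, Angpt2, Kcne3, Adgrl4 and Apln are higher in both mutants than in every control, and Dll4, Cxcr4 and Pdgfb overlap.

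The order of the levels also differed between the groups. Per length, as CPM per kilobase of exon in GENCODE M21, Cxcr4 was highest in the controls at 10.3 ± 0.620 (SD, n = 4), followed by Apln at 3.65 ± 0.383. Adgrl4 (2.03 ± 0.0979), Pdgfb (1.79 ± 0.312) and Dll4 (1.34 ± 0.124) came next, and the ranges of neighbours overlapped from Adgrl4 to Pdgfb and from Pdgfb to Dll4. Esm1 (0.615 ± 0.204), Kcne3 (0.591 ± 0.0692) and Angpt2 (0.499 ± 0.126) were lowest and were not separated from each other. The 3 genes with the largest fold changes were thus the 3 with the lowest level per length in the controls. The control level is itself part of the fold change, and these 3 were known as large changes beforehand, so nothing is read from this. In the libraries labelled Foxp1cKO, Cxcr4 (11.0 ± 1.29, SD, n = 2) and Apln (7.10 ± 0.646) were again first, and Esm1 came next at 5.64 ± 0.648. Adgrl4 (4.21), Kcne3 (3.99) and Angpt2 (3.38) followed with overlapping neighbours. Pdgfb (2.21) and Dll4 (1.99) were last.

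Across the 6 libraries, the likeness of a gene to Esm1 was measured as the root mean square difference of centred log2 CPM, a measure that the difference between the groups dominates. Among 16994 genes with a mean of at least 10 counts, Kcne3 ranked 2 and Angpt2 ranked 3, at 0.34 and 0.38. The other members ranked much lower, Adgrl4 at 196, Apln at 231, Dll4 at 995, Pdgfb at 1907 and Cxcr4 at 5233. The 10 nearest genes that are no members were Gm16754, Bnip3, Slc16a3, Depp1, Adm, Cd300lf, Pdk1, Stc2, H2-Ab1 and Gm15283, at differences of 0.30 to 0.61. Of these, Gm16754, Cd300lf and H2-Ab1 had low levels, with means of 0.188, 0.106 and 0.245 CPM in the controls.

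Markers of other cells in and around vessels differed between the groups to different degrees, and their part in the values of the tip-cell genes was not tested. The summed CPM of 11 mural cell markers was 203 to 249 in the controls and 310 and 321 in the mutants. Of the 11, 10 were higher, where 8407 of all 17068 genes were. For 6 of the 11, both mutants were above all controls, as was the case for 11.5% of all genes. For example, Rgs5, a pericyte gene, had 28.9 to 36.3 CPM and 49.3 and 47.4 CPM. None of the 11 passed the edgeR threshold, and 5, all higher, reached p under 0.05 before adjustment, as 1115 of the 17068 genes did in that direction. DESeq2 called 2 as higher, Rgs5 and Ndufa4l2, beside 310 of all 17068 genes, and limma called 1, Ndufa4l2. Red cell markers summed to 1473, 1115, 1167 and 3616 CPM in controls 1 to 4 and to 3909 and 4201 CPM in Foxp1cKO 1 and 2. Of these 10 genes, 9 were higher, and DESeq2 called 1, Hba-a1. At p under 0.05 before adjustment there were 3, all higher, as were 1115 of the 17068 genes. Control 4 was thus close to the mutants in red cell RNA. It was also the highest control for Esm1, Angpt2 and Kcne3, below both mutants. The part of red cell content in these genes was not tested. Meningeal fibroblast markers summed to 102 to 593 CPM in the controls and to 161 and 358 CPM in the mutants. For 12 microglia and macrophage markers the sums were 63.2 to 92.6 CPM and 74.6 and 71.8 CPM. Intermediate progenitor markers were lower in 8 of 9 genes. Of the 9, 3 reached p under 0.05 before adjustment, all lower, as 1109 of the 17068 genes did in that direction. For 3, both mutants were below all controls, as was the case for 13.1% of all genes. The sums of the 9 markers were 871 to 1129 CPM in the controls and 805 and 902 CPM in the mutants. Hes6, a regulator of neuronal differentiation, was the lowest of them, at 88.8 to 102 CPM in the controls and 70.1 and 73.9 CPM in the mutants (log2 fold change -0.42, standard error 0.0866, edgeR adjusted p = 0.232), and DESeq2 called it lower. Sums of 9 radial glia markers were 2198 to 2767 CPM and 2549 and 2493 CPM, with 6 of the 9 higher. At p under 0.05 before adjustment there were 2 of the 9, 1 in each direction, beside 2224 of all 17068 genes.

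**Figure D4:**
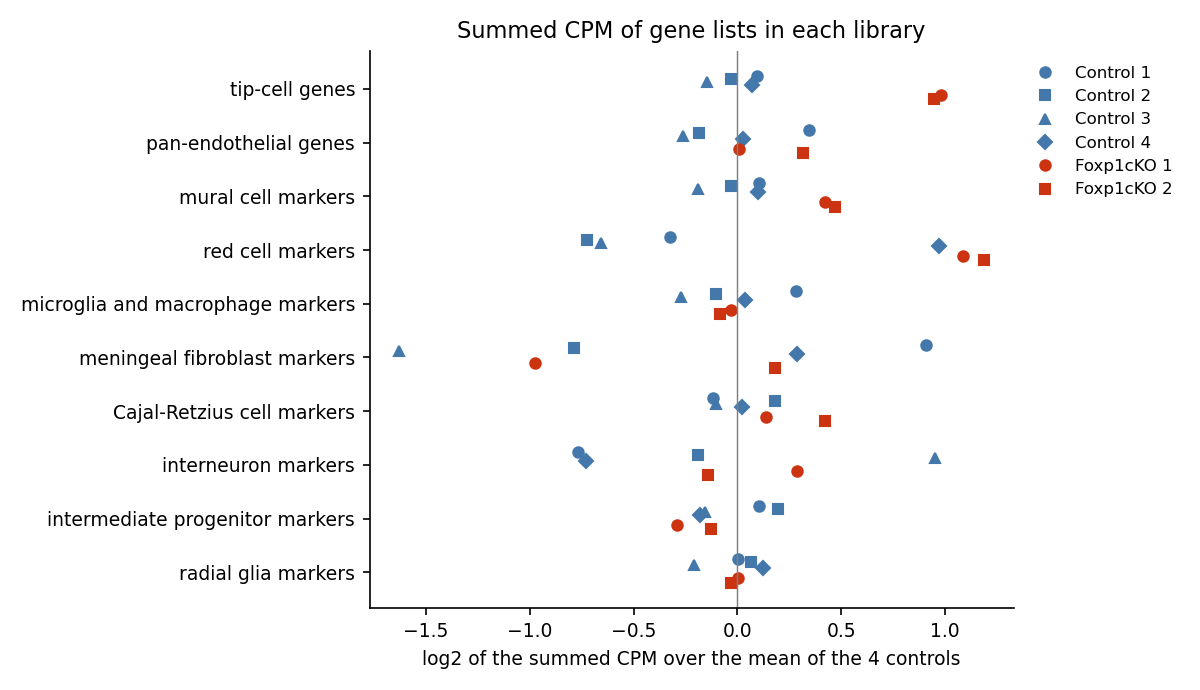
Log2 of the summed CPM of each gene list in each library over the mean of the 4 controls, for the controls (blue) and the libraries labelled Foxp1cKO (red). The tip-cell genes stand at 0.98 and 0.95 in the mutants, the pan-endothelial genes at 0.0077 and 0.31 within the range of the controls, and the red cell markers at 1.09 and 1.19 beside 0.97 in control 4.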

How the data were processed

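Groups were taken from the titles of the 6 libraries. The authors used a stranded kit and paired-end sequencing, mapped to mm10 by STAR and obtained read counts per gene from HTSeq 0.9.1 (union), leaving out genes of low expression. The strand setting of the counting is not given in the sources used here. The deposited counts are whole and not normalized, for 17068 genes. VST values from the authors, on a log2-like scale, served 1 alternative.

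Counts were fitted in edgeR 4.0.16 (R 4.3.3) by quasi-likelihood, scaled by TMM, with group as the model's only term. Adjustment (Benjamini-Hochberg) ran over all 17068 genes, and 0.05 was the threshold. The authors' model also held the litter, which the labels do not give. Log2 CPM used a prior count of 2. Names, positions and exon lengths came from GENCODE M21 (GRCm38, the assembly of mm10, but another release than the authors'), in which 17047 identifiers were found. Promoters came from RefSeq. The edgeR and DESeq2 tests, and limma on log2 CPM in place of VST values, were checked on simulated counts with known changes. There DESeq2 made more false calls than the other tools. The simulated counts used the spread that edgeR estimated from these data, so the setting was close to the edgeR model.

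The members, gene lists and rules were chosen with earlier results of these data known, so no list is independent evidence. Genes named beside the 8 members are the listed partners, genes of the other lists that passed or were the extremes of a list, genes that overlap a member, and the 10 genes nearest to Esm1. Other genes, which include Cdh5, Esam, Cldn5, Icam2, Clec14a, Mmrn2, Rgs5, Vwf, Plaur, Unc5b, Flt4, Nid2, Mcam, Hey1, Hey2, Heyl, Nrarp, Jag1, Smad6, Smad7, Ndufa4l2, Hba-a1, Emx1, Pax6 and the relatives of the members, were picked as examples after their values were seen. Alternatives were DESeq2 1.42.0, its size factors, total counts, a mean of at least 50 counts, limma 3.58.1 on the VST values, each library left out and the replicate number as a block. The crossed block was added after the data were seen. Per the study's methods, the libraries came from females, 4 of them controls and 2 mutants, so p-values measure the spread between these animals. Between libraries of 1 group the chi-square per gene was 25.9 to 193, so none was a copy of another.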

Additional observations from a re-analysis of the deposited data

Results flagged for a closer look

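Of 26 genes examined, 5 had 1 control far from the other 3, where the gap to the nearest control took an unusually large share of the whole range. Chance flags about 1 gene in 20. Apln was lowest in control 3, at 9.69 CPM against 11.9 to 12.3 CPM in the other controls, a gap of 0.851 of the range. Ackr3 was highest in the same library, at 47.8 CPM against 29.3 to 32.2 CPM (0.845 of the range). Control 3 was the only Foxp1 fl/fl control. Among the controls it also had the highest summed CPM of the interneuron markers, 904, and the lowest of the pan-endothelial genes, 265. The part of its genotype and of these cells in the 2 values was not tested. Aplnr was highest in control 1, at 27.2 CPM against 13.7 to 15.9 CPM (0.840), and so was Kdr, at 69.5 CPM against 45.2 to 49.3 CPM (0.831). Control 1 also had the highest summed CPM of the pan-endothelial genes, 403, and of the meningeal fibroblast markers, 593. Their part in these values was not tested. Vegfa was lowest in control 2, at 64.9 CPM against 71.0 to 71.7 CPM (0.903), a gap that is small beside the 231 and 267 CPM of the mutants.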

How the results depend on the processing

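Each of the 8 members kept a log2 fold change above 0 in every alternative, except Cxcr4 without Foxp1cKO 2 (-0.048). Their median log2 fold change ran from 0.94 to 1.03 when single libraries were left out, and was 0.83 with limma on the VST values, a scale that compresses low counts. The pan-endothelial median ran from -0.067 to 0.32 when single libraries were left out, and the tip-cell level relative to the endothelial genes from 0.66 to 1.02. Counts of genes past the threshold moved far more. Over all genes, 26 passed in the edgeR fit, 507 with DESeq2 (310 higher, 197 lower), and 2 to 96 with single libraries left out. Both groups have libraries numbered 1 and 2, but the labels give no pairing, and the differences between libraries 1 and 2 correlated at -0.117 between the groups. A block on the replicate number left 0 genes and 0 of the 8 members past the edgeR threshold, while 3027 genes and 5 members reached p under 0.05 before adjustment. The crossed pairing, chosen after seeing the data, gave 1301 genes and 5 members. The members past the threshold numbered 0 to 4 with single libraries left out, 3 with limma and 6 with DESeq2. Single partners changed sign near 0. Angpt1 ran from -0.12 to 0.12 with single libraries left out and was 0.0007 with limma, 0.18 with the block and with the crossed block, and 0.039 without Foxp1cKO 2. Notch4 was -0.024 with either block and ran from -0.070 (without Foxp1cKO 2) to 0.11, with -0.036 without control 3. Pdgfra ran from -0.66 to 0.064 (without control 1), with 0.038 without Foxp1cKO 1. Cxcl12 ran from -0.91 to 0.033 and Tek from -0.84 to 0.0054, the upper values without Foxp1cKO 1. The causes were not tested. Where an arm is left with 1 library, that library is assumed to vary like the controls.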

Other observations

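Relatives of the members were measured beside them. Of 16 listed family members, 10 were in the table, and 0 of these passed the edgeR threshold, and 1 reached p under 0.05 before adjustment, where 2224 of 17068 genes did. DESeq2 and limma called 0 as well. Kcne4, a relative of Kcne3, had 0.229 to 0.549 CPM in the controls and 0.556 and 0.870 CPM in the mutants (log2 fold change 1.17, standard error 0.436). The other Notch ligand genes Dll1 and Dll3, which neural cells use, had log2 fold changes of -0.050 and -0.082. Those of Adgrl1, Adgrl2 and Adgrl3 were -0.0049, 0.096 and 0.077, and of the ligand genes Pdgfa, Pdgfc and Pdgfd 0.12, 0.19 and 0.61. Angptl4 was lowest, at -0.39.

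Some members share their position with a gene on the other strand, where the strand setting of the counting would matter. Esm1 lies within the span of Gzmk, with 0 shared exonic bases, and Gzmk had 0.178 to 0.395 CPM in the 6 libraries. Kcne3 shares 9 exonic bases with the antisense gene Gm34821, which had 0.242 to 0.795 CPM. Dll4 shares 214 exonic bases with Gm14207, at 0.292 to 0.804 CPM. Both mutants were above all controls for Gzmk and Gm34821, which did not pass the threshold (edgeR adjusted p = 0.380 and 0.347).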
